A study of Mus musculus with 10 samples.

Results

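The genes described here are 10 imprinted regulators of growth: H19, Igf2, Igf2r, Dlk1, Meg3, Peg3, Mest, Cdkn1c, Plagl1 and Grb10. They were taken by symbol from the deposited table of RPKM values (reads per length of transcript and depth of sequencing), with the row of the highest mean where a symbol has several. Of the 10 genes, 7 have a row, out of 14849 rows that name a gene. Cdkn1c stayed under 1 RPKM in every library and is described as silent, and H19, Meg3 and Mest have no row of their own and were not analysed here. The remaining 6 passed the filter of 1 RPKM in at least 2 libraries. Igf2 and Igf2r passed it at values of at most 1.95 and 1.80 RPKM.

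An imprinted gene is expressed from the copy inherited from 1 parent, in most cases because DNA methylation marked the copies differently in the egg and the sperm. The marks sit at control regions that often govern a cluster of neighbouring genes, and the paternally expressed members tend to promote fetal growth while the maternally expressed ones tend to restrain it. Since a single copy is in use, its loss or the erasure of the mark can switch such a gene fully off or raise its output, and cultured cell lines are known for drifting in this way.

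The study sequenced RNA from NIH3T3, an established fibroblast line from the mouse embryo, in 10 libraries. The control group (n = 2) holds the parental cells and cells that stably carry the vector. The FOXP2 group (n = 4) holds 4 independent clones stably overexpressing FOXP2, a forkhead transcription factor, and the FOXP2-CPED1 group (n = 4) holds 4 independent clones stably overexpressing a rearranged form that joins FOXP2 with CPED1. Each clone was sequenced once, so technical and clonal variation cannot be told apart. The labels do not call the parental or the vector cells a clone, so the effect of deriving a clone and the effect of a construct cannot be told apart either. Both constructs were compared with the same 2 control libraries.

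The libraries carried the fibroblast label in their RNA: 12 of 14 fibroblast markers had a row, and all 12 reached 1 RPKM in every library. Their summed level was 9710 to 9822 RPKM in the controls, 6572 to 9265 RPKM in the FOXP2 clones and 6897 to 9805 RPKM in the FOXP2-CPED1 clones. Few markers of other cells had a row, so their absence cannot be read from the table. Rows existed for 2 of 7 epithelial, 1 of 5 endothelial, 1 of 8 blood and 1 of 6 muscle markers. The same held for 1 of 5 adipocyte, 0 of 5 neuronal and 1 of 5 pluripotent markers. None of those with a row reached 1 RPKM in all libraries. The only blood marker with a row, the haemoglobin gene Hba-a1, had 10.5 to 13.3 RPKM in the controls and at most 8.34 RPKM in the clones. Des, the muscle marker, had 3.08 to 3.57 RPKM in the controls, and the adipocyte marker Fabp4 is described with Dlk1. Relative depth, read from the steps between low values, was 0.914 to 1.32 of the parental library, and the absolute depth is unknown. Mitochondrial rows were listed at 0 in FOXP2 clones 2 and 4 and FOXP2-CPED1 clone 3, against 33213 to 41130 RPKM in the other 7 libraries. Fold changes against the controls that moved by more than 1.5 times without these 3 libraries are named with the comparisons.

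Promoters from RefSeq on build GRCm38.p6 were matched to 8 of the 10 genes, with 15 start sites, each taken as 250 bases before and 50 after the start. Grb10 is shown because it is the gene that was lost in a clone, Dlk1 because it had the highest level and because its promoter alone among the 15 holds the searched forkhead motif, and Plagl1 because it stood higher in every FOXP2 clone than in both controls. Capitals mark CpG, the dinucleotide that carries DNA methylation, in the Grb10 and Plagl1 sequences. In the Dlk1 sequence they mark the forkhead motif TGTTTAC, searched on both strands (GTAAACA is its reverse complement).
Grb10, first start, chr11:12037371-12037670, minus strand: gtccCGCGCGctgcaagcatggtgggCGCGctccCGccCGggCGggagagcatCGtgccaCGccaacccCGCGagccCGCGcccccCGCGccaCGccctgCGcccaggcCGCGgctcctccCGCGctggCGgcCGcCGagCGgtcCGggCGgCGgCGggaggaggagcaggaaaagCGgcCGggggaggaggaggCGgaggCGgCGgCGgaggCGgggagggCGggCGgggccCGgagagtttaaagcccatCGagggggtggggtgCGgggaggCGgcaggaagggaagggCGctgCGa
Grb10, second start, chr11:12027922-12028221, minus strand: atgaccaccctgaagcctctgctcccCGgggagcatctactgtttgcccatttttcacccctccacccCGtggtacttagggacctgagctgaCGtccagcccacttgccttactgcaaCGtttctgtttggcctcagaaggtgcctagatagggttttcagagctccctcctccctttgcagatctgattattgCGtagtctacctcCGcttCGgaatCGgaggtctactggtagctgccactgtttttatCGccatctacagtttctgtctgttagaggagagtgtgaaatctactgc
Plagl1, chr10:13090582-13090881, plus strand: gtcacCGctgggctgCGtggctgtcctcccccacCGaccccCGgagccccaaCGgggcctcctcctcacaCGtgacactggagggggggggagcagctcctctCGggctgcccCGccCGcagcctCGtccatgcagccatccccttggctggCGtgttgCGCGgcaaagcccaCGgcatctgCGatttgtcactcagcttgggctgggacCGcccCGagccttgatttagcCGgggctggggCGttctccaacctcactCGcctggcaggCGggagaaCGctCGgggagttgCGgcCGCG
Dlk1, chr12:109452573-109452872, plus strand: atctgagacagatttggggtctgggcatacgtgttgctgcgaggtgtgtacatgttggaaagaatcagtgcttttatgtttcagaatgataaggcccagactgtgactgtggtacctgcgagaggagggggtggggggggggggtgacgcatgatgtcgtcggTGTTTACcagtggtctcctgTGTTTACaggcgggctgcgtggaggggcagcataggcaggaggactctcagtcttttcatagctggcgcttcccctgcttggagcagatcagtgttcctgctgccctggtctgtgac
The first Grb10 window holds 45 CpG and is 80% G or C, and 1.93% of 32851 promoter windows of the same length hold as many CpG or more. The window of its second start holds 9, a number reached by 45.8% of windows. Plagl1 has 26 CpG, a number reached by 16.9% of windows, and Igf2r has 34, reached by 7.73%. Peg3 with 13 and Dlk1 with 9 lie closer to the median of 7. The Dlk1 window, 1 of the 15 searched, contains 2 matches to TGTTTAC. Of all windows, 3.65% contain at least 1 match and 0.110% contain 2 or more. These shares are for a single window and do not allow for the search of 15. Methylation and factor binding were not measured in these libraries, and the table does not say which start a transcript used.

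Grb10 was the gene that differed most between clones. It encodes an adaptor protein that binds the insulin and IGF1 receptors and dampens their signal. The maternal copy is used in most tissues and the paternal copy in neurons. It has 1 row of its own (ENSMUSG00000020176). In the parental and vector cells it stood at 68.0 and 73.6 RPKM. The FOXP2 clones 1 to 4 had 72.9, 22.6, 0.0398 and 74.5 RPKM, and the FOXP2-CPED1 clones 1 to 4 had 4.48, 58.6, 17.7 and 33.9 RPKM. FOXP2 clones 1 and 4 were thus at the level of the controls, FOXP2 clone 3 had almost no Grb10 RNA, and all 4 FOXP2-CPED1 clones lay below both controls at 4 different levels. As a percentage of the control mean, FOXP2 clone 3 kept 0.0562% and FOXP2-CPED1 clone 1 kept 6.33%. Intermediate levels of 25.1%, 31.9%, 47.9% and 82.7% were found in FOXP2-CPED1 clone 3, FOXP2 clone 2, FOXP2-CPED1 clone 4 and FOXP2-CPED1 clone 2. The highest and the lowest library were 1873-fold apart. The levels thus ran from 0.0398 RPKM to the control level with steps between them. In bulk RNA, fewer cells with a transcript and less transcript per cell cannot be told apart.

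**Figure D1:**
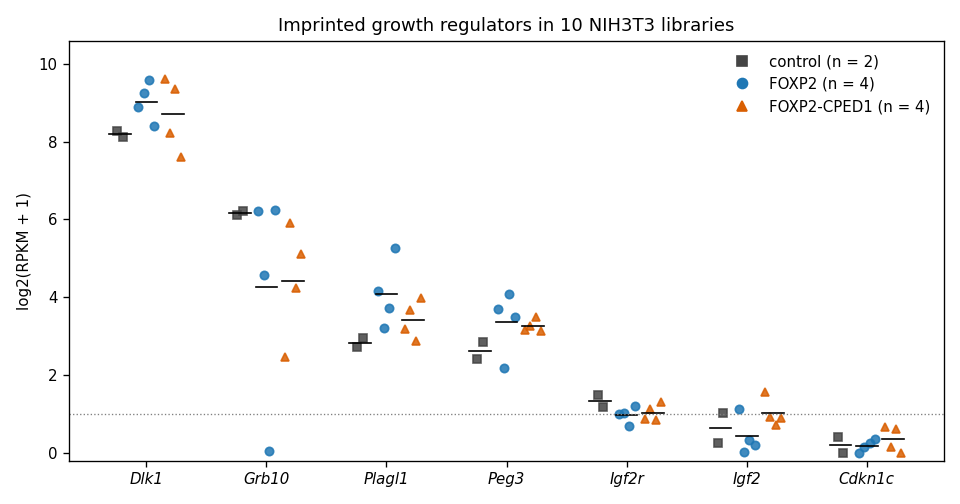
Level as log2(RPKM + 1) of the 7 genes with a row, with 1 point a library, bars at group means and a dotted line at 1 RPKM. The lowest FOXP2 point of Grb10 is clone 3, at 0.0398 RPKM, while Dlk1 stays between 194 and 787 RPKM in all 10 libraries.

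A gene was counted as on-off when it reached 5 RPKM in at least 1 library and was under 1 RPKM in at least 1 other. Grb10 was the only 1 of the 6 genes to meet this rule, against 3.05% of the 12842 rows tested. It met it through FOXP2 clone 3 alone: without that library no member was on-off. Of 2206 rows at 50 RPKM or more in both controls, a level chosen after the Grb10 values were seen, 10 were under 1 RPKM in some clone, or 0.453%. Of those 10 rows, 7 were predicted gene models with names starting in Gm and 2 were the mitochondrial rows. The last was Grb10.

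The genes around Grb10 give little to set beside it. Cobl, an actin nucleator next to it that is imprinted in some tissues, was low throughout at 0.0184 to 0.957 RPKM. Ddc, the neighbour that encodes an enzyme of dopamine synthesis, has no row. A further row that joins Grb10 with the gene model Gm12001 held 0.233 to 1.40 RPKM, lowest in FOXP2 clone 3. The 3 single-gene rows most like Grb10, among 8633 rows ranked by Pearson r of log2(RPKM + 1) over the 10 libraries, were Wee1 (r = 0.967), Akap12 (r = 0.963) and Itpripl2 (r = 0.958). Wee1, a kinase that holds back entry into mitosis, ranged from 11.9 RPKM in FOXP2 clone 3 to 30.4 RPKM in the vector cells. Akap12, a scaffold for protein kinase A, had 3.64 RPKM in FOXP2 clone 3, 8.09 RPKM in FOXP2-CPED1 clone 1 and, as its highest value, 28.7 RPKM in FOXP2 clone 4. These values describe libraries that share clones and depth, and the rows were picked for their likeness.

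Dlk1 and Igf2 are the secreted or membrane-bound ligands of the group, and they lay at opposite ends of the scale. Dlk1 is a paternally expressed transmembrane protein of the Notch ligand type that holds preadipocytes back from differentiating. It had 306 and 280 RPKM in the parental and vector cells. The FOXP2 clones 1 to 4 had 470, 612, 770 and 337 RPKM, and the FOXP2-CPED1 clones 1 to 4 had 787, 300, 655 and 194 RPKM. Every FOXP2 clone was above both controls, whereas the FOXP2-CPED1 clones lay on both sides of them and included the highest and the lowest library of all. The means were 292.9 ± 18.7 RPKM (SD, n = 2) in the controls, 547.2 ± 186.4 RPKM (SD, n = 4) in the FOXP2 clones and 483.8 ± 282.1 RPKM (SD, n = 4) in the FOXP2-CPED1 clones. No clone lost Dlk1. Fabp4, a gene of differentiated adipocytes and the only adipocyte marker with a row, had 5.01 to 5.09 RPKM in the controls, 1.20 to 3.18 RPKM in the FOXP2 clones and 0.470 to 3.97 RPKM in the FOXP2-CPED1 clones, and its relation to Dlk1 was not tested. In the rest of its cluster, Wars, a tRNA ligase for tryptophan, had 30.4 to 66.4 RPKM, Wdr25 had 2.19 to 3.92 RPKM, and the row that joins Mirg with microRNA genes of the maternally expressed side had 0.199 to 0.959 RPKM. Begain, Rtl1, Rian and Dio3 have no row.

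Igf2, the fetal growth factor that is expressed from the paternal copy, was near the detection limit. The parental and vector cells had 0.199 and 1.02 RPKM. The FOXP2 clones 1 to 4 had 1.20, 0.00532, 0.254 and 0.151 RPKM, and the FOXP2-CPED1 clones 1 to 4 had 1.95, 0.908, 0.640 and 0.874 RPKM. Both groups of clones overlapped the controls, and the controls alone spanned 0.199 to 1.02 RPKM. At this level a few reads can set a value. Beyond its control region, Mrpl23, a protein of the mitochondrial ribosome, was at 48.2 to 85.7 RPKM and Lsp1, an actin-binding protein, at 6.40 to 15.2 RPKM.

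Igf2r is the receptor that takes IGF2 to the lysosome for breakdown, and in the mouse it is expressed from the maternal copy. It had 1.80 and 1.26 RPKM in the parental and vector cells. The FOXP2 clones 1 to 4 had 0.978, 1.04, 0.611 and 1.28 RPKM, and the FOXP2-CPED1 clones 1 to 4 had 0.830, 1.19, 0.786 and 1.46 RPKM. In each construct 3 clones were below both controls and 1 lay between them. Airn, the antisense RNA whose transcription silences the paternal Igf2r copy, is held mainly by a row that joins it with Gm16574. That row had 10.4 and 10.5 RPKM in the controls, 10.4, 6.32, 7.15 and 5.85 RPKM in the FOXP2 clones and 6.73, 9.77, 7.63 and 6.70 RPKM in the FOXP2-CPED1 clones. In this row FOXP2 clone 1 was at the level of the controls and the other 7 clones were below both. The limma log2 fold changes were -0.47 ± 0.22 (SE, adjusted p = 0.619) in FOXP2 and -0.41 ± 0.22 (SE, adjusted p = 0.760) in FOXP2-CPED1. Of all rows, 13.3% were lower than the controls without overlap in FOXP2-CPED1. Igf2r and Airn overlap on opposite strands, and no source used here gives the strand setting of the counting, so reads of the pair cannot be told apart.

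Plagl1 and Peg3 encode zinc finger transcription factors that are expressed from the paternal copy. Plagl1 slows the cell cycle and activates other imprinted genes. It had 5.56 and 6.69 RPKM in the parental and vector cells. The FOXP2 clones 1 to 4 had 16.9, 8.18, 12.2 and 37.5 RPKM, and the FOXP2-CPED1 clones 1 to 4 had 8.05, 11.7, 6.27 and 14.9 RPKM. All 4 FOXP2 clones and 3 of the 4 FOXP2-CPED1 clones were above both controls, and FOXP2 clone 4 stood apart from the rest. The means were 6.13 ± 0.802 RPKM (SD, n = 2) in the controls, 18.7 ± 13.04 RPKM (SD, n = 4) in the FOXP2 clones and 10.2 ± 3.83 RPKM (SD, n = 4) in the FOXP2-CPED1 clones. A second Plagl1 row ran from 1.35 to 5.50 RPKM and was also highest in FOXP2 clone 4. Among the genes beside Plagl1, Fuca2, a fucosidase, had 32.7 to 58.0 RPKM and Ltv1, a ribosome assembly factor, had 16.3 to 43.3 RPKM. Utrn, the relative of dystrophin, was highest in the same FOXP2 clone 4, at 20.3 RPKM, over a range that began at 6.83 RPKM. The other neighbours with a row were not highest in that clone. Ltv1 was highest in FOXP2 clone 2 and Fuca2 in FOXP2-CPED1 clone 3. In FOXP2 clone 4 Phactr2 had 0.0889 RPKM, over a range of 0.0546 to 1.00 RPKM, and Stx11 had 3.76 RPKM, below both controls.

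Peg3 had 4.29 and 6.15 RPKM in the parental and vector cells. The FOXP2 clones 1 to 4 had 11.9, 3.52, 15.9 and 10.3 RPKM, and the FOXP2-CPED1 clones 1 to 4 had 7.92, 8.54, 10.3 and 7.82 RPKM. The 4 FOXP2-CPED1 clones lay close together and above both controls, while the FOXP2 clones held both the highest and the lowest library. The means were 5.22 ± 1.32 RPKM (SD, n = 2), 10.4 ± 5.16 RPKM (SD, n = 4) and 8.64 ± 1.15 RPKM (SD, n = 4) in controls, FOXP2 and FOXP2-CPED1. A second Peg3 row reached 3.47 RPKM in FOXP2 clone 2, the clone with the lowest value in the first row, and 2.05 RPKM in the parental cells. In 5 clones it was at most 0.000292 RPKM, so the split of reads between the pair of rows is uncertain. Zfp28, a zinc finger gene nearby, had 3.37 to 6.40 RPKM.

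Cdkn1c, which encodes the maternally expressed cyclin-dependent kinase inhibitor p57, was silent. It had 0.323 and 0.00176 RPKM in the parental and vector cells, 0.0993, 0.181 and 0.267 RPKM in FOXP2 clones 2 to 4 and 0.574, 0.114 and 0.517 RPKM in FOXP2-CPED1 clones 1 to 3. In FOXP2 clone 1 and FOXP2-CPED1 clone 4 it is listed at 0. Levels of its neighbours were mixed. Kcnq1, a potassium channel gene, was low at 0.332 to 1.29 RPKM. The row joining Cd81 with Tssc4 had 312 to 453 RPKM, and Nap1l4, a histone chaperone, had 66.3 to 109 RPKM.

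In the comparison of FOXP2 clones with the controls, none of the 6 genes passed the threshold of 0.05 on the limma p adjusted over all rows, against 0.436% of the 12842 rows. At an unadjusted p under 0.05, Plagl1 was the only 1 of the 6, against 8.52% of all rows. Plagl1 had the lowest adjusted limma p, 0.491, with a log2 fold change of 1.26 ± 0.49 (SE; 95% interval 0.16 to 2.36). Dlk1 had 0.83 ± 0.52 (limma, adjusted p = 0.735) and Peg3 had 0.74 ± 0.42 (limma, adjusted p = 0.704). Peg3 was 1.13 without FOXP2 clone 2 (limma, adjusted p = 0.0837), the clone where the second Peg3 row was highest. It was 1.26 without the 3 libraries whose mitochondrial rows are at 0 (limma, adjusted p = 0.127), and both still missed the threshold. Grb10 had the largest difference and the widest interval, -5.36 to 1.56 around a log2 fold change of -1.90 ± 1.55 (limma, adjusted p = 0.812). Without FOXP2 clone 3 that value was -0.50, and without those 3 libraries it was -3.03. Igf2r had -0.36 ± 0.22 (limma, adjusted p = 0.730) and Igf2 had -0.22 ± 0.37 (limma, adjusted p = 0.915). Igf2 turned to 0.16 without the vector cells and to 0.092 without the 3 libraries, and was -0.60 without the parental cells, -0.46 without FOXP2 clone 1 and -0.084 without FOXP2 clone 2. Igf2r was -0.20 without the parental cells. The FOXP2 and control libraries did not overlap for Dlk1 and Plagl1, both higher in FOXP2, where 9.13% of all rows were higher without overlap. No member was lower without overlap, against 10.4% of rows. The exact two-sided permutation p was 0.133 for each of Dlk1 and Plagl1, and 4 libraries against 2 cannot go below 0.0667.

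In the comparison of FOXP2-CPED1 clones with the controls, again none of the 6 passed the adjusted limma threshold, against 0.35% of rows. None passed an unadjusted p under 0.05 by limma either, against 7.28% of rows. Dlk1 had a log2 fold change of 0.51 ± 0.52 (limma, adjusted p = 0.888), Peg3 of 0.64 ± 0.42 (limma, adjusted p = 0.829), Plagl1 of 0.59 ± 0.49 (limma, adjusted p = 0.871) and Igf2 of 0.39 ± 0.37 (limma, adjusted p = 0.879). Grb10 had -1.74 ± 1.55, with a 95% interval of -5.20 to 1.72 (limma, adjusted p = 0.872), and Igf2r had -0.30 ± 0.22 (limma, adjusted p = 0.851). Peg3 was the only member higher without overlap, against 12.2% of rows, and Grb10 the only one lower without overlap, against 13.3%. The exact two-sided permutation p was 0.0667 for Peg3, the smallest possible, and 0.2 for Grb10. Without FOXP2-CPED1 clone 1 the Grb10 value was -1.08. Single libraries also moved the low and the variable genes. Dlk1 was 0.20 without FOXP2-CPED1 clone 1, 0.29 without clone 3, likewise 0.29 without the 3 libraries whose mitochondrial rows are at 0, and 0.87 without clone 4. Igf2 was 0.013 without the parental cells, 0.77 without the vector cells and 0.21 without FOXP2-CPED1 clone 1. Peg3 was 0.42 and Igf2r -0.14 without the parental cells, and Igf2r was -0.45 without the vector cells.

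The direct comparison of FOXP2-CPED1 with FOXP2 clones asked whether the rearranged form differs from FOXP2. No row passed the adjusted limma threshold, 0.0% of 12842, and 2.16% had an unadjusted p under 0.05, among them none of the 6 genes. The largest differences were -0.66 ± 0.40 for Plagl1 (95% interval -1.56 to 0.24) and 0.61 ± 0.30 for Igf2 (95% interval -0.06 to 1.28), on the log2 scale of FOXP2-CPED1 minus FOXP2. Dlk1 had -0.33 ± 0.43, Peg3 had -0.10 ± 0.35, Igf2r had 0.06 ± 0.18 and Grb10 had 0.16 ± 1.27. The Grb10 interval of -2.66 to 2.98 leaves room for large differences in either direction. Without the 3 libraries whose mitochondrial rows are at 0, Grb10 was 1.36, Dlk1 -0.75, Peg3 -0.70, Igf2r 0.26 and Igf2 0.40. Plagl1 also moved but stayed negative. The construct groups overlapped for all 6 genes, while 1.38% of all rows did not overlap. The smallest exact permutation p that 4 against 4 can give is 0.0286, and the lowest among the 6 genes was 0.114, for Igf2.

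**Figure D2:**
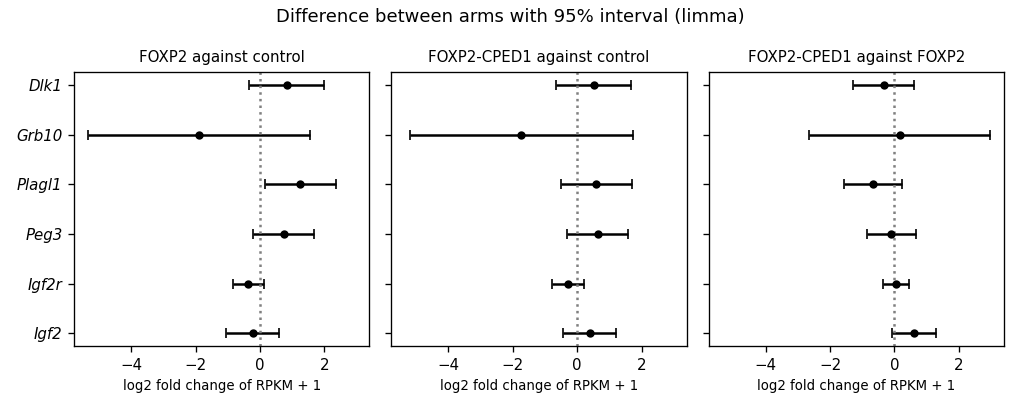
Log2 fold change from limma on log2(RPKM + 1), with 95% intervals, of the 6 tested genes in the 3 comparisons. The interval of Plagl1 in FOXP2 against control, 0.16 to 2.36, is the only one that leaves out 0, and the Grb10 intervals are the widest.

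In 5 of the 6 genes the spread between clones was above the median of all rows. The SD of log2(RPKM + 1) over the 8 clones had a median of 0.640 over the 6 genes and 0.276 over all rows tested. Grb10 had an SD of 2.14, and 33 of 12842 rows had a larger one. Plagl1 with 0.751, Dlk1 with 0.727, Peg3 with 0.553 and Igf2 with 0.520 also lay above the median of all rows, and Igf2r with 0.202 lay below it. The Igf2 value rests on clone levels of 0.00532 to 1.95 RPKM, where a few reads can set a value. The spread was not shared evenly by the constructs. Within the FOXP2 clones Peg3 had an SD of 0.825, and within the FOXP2-CPED1 clones it had 0.165. Dlk1 had the opposite order, 0.512 within FOXP2 and 0.948 within FOXP2-CPED1. These differences in spread were not tested. The Peg3 value in FOXP2 includes clone 2, with 3.52 RPKM in this row and 3.47 RPKM in the second Peg3 row.

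**Figure D3:**
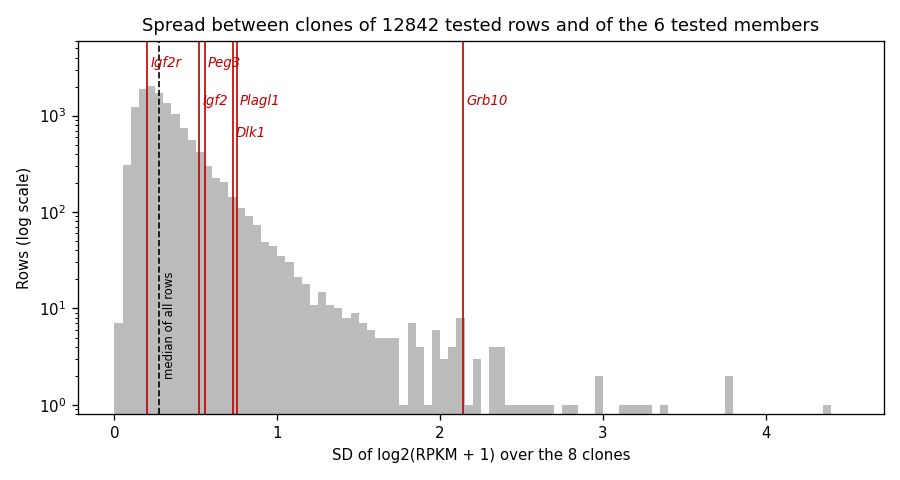
Distribution of the SD of log2(RPKM + 1) over the 8 clones for all 12842 rows tested, with the 6 genes marked. The median of all rows is 0.276, Igf2r is the only marked gene below it, and Grb10 at 2.14 lies in the far tail.

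Several members ranked the clones alike or in reverse. The 4 libraries with the most Dlk1 (FOXP2-CPED1 clone 1, FOXP2 clone 3, FOXP2-CPED1 clone 3 and FOXP2 clone 2) were the 4 with the least Grb10. Among the 15 pairs of the 6 genes, Dlk1 and Grb10 had a Pearson r of -0.722 over 10 libraries (permutation p = 0.0106, adjusted 0.0528 over the 15 pairs) and a Spearman rho of -0.661 (permutation p = 0.0434, adjusted 0.217). Without the 2 libraries farthest from the median of Dlk1 r was -0.795. Dlk1 and Igf2r gave the strongest relation, with r of -0.851 (permutation p = 0.0018, adjusted 0.0270) and rho of -0.818 (permutation p = 0.0060, adjusted 0.0900). Without the 2 libraries farthest from the median of Igf2r r was -0.939, and over the 8 clones alone it was -0.916 (exact permutation, adjusted p = 0.0246), with a rho of -0.881 (exact permutation, adjusted p = 0.109). Igf2r and Grb10 went together with r of 0.763 (permutation p = 0.00780, adjusted 0.0528) and rho of 0.685 (permutation p = 0.0339, adjusted 0.217), and without 2 libraries r was 0.637. Over the 8 clones alone r was 0.786 for Igf2r and Grb10 (exact permutation, adjusted p = 0.121) and -0.673 for Dlk1 and Grb10 (exact permutation, adjusted p = 0.298). Of these 3 pairs, only Dlk1 and Igf2r had an adjusted p under 0.05 for r, and none had one for rho. The controls and all clones enter the same fit, and Igf2r rests on values of at most 1.80 RPKM.

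**Figure D4:**
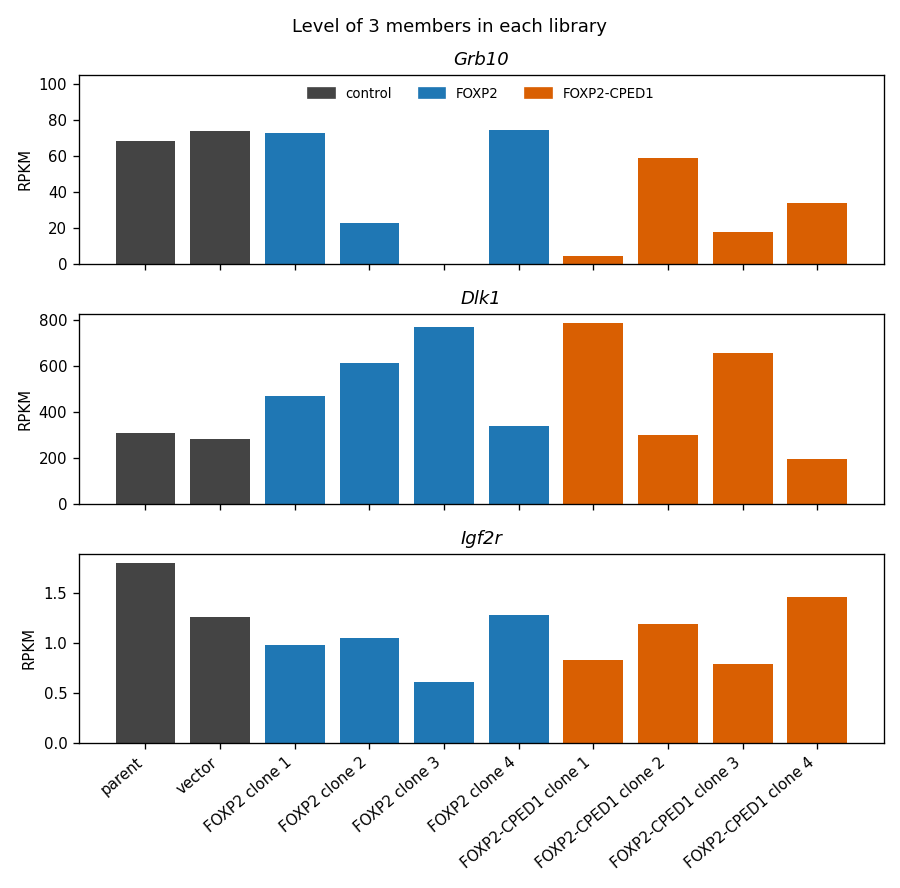
RPKM of Grb10, Dlk1 and Igf2r in each library, 1 bar a library on linear axes from 0, coloured by group. The 4 libraries with the most Dlk1 have the least Grb10, and Igf2r is lowest in FOXP2 clone 3, at 0.611 RPKM.

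Libraries also differed across the whole transcriptome, in part along other lines. On the first principal component of all rows tested, which held 27.4% of the variance, FOXP2 clone 3 scored 41.3, FOXP2-CPED1 clone 3 scored 24.8 and FOXP2-CPED1 clone 1 scored 23.0, the highest of the 10. FOXP2 clone 2, which shared high Dlk1 and reduced Grb10 with them, scored -32.4, and FOXP2-CPED1 clone 4, which had the lowest Dlk1, scored -39.3. The controls scored -5.15 and -10.7. The part of this shared variation in the relations between the members was not tested.

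As a median, other imprinted genes and genes of their clusters varied between clones about as much as all rows did. Of 96 listed, 46 have a row of their own and 40 were tested. None passed the adjusted limma threshold in any comparison. At an unadjusted p under 0.05 by limma there were 4 in each comparison with the controls and 1 between the constructs, where 8.52%, 7.28% and 2.16% of all rows had such a p. The median log2 fold changes were -0.01, -0.00 and -0.02 in FOXP2, FOXP2-CPED1 and between the constructs, and the medians of all rows were 0.02, 0.00 and -0.01. The median SD over the clones was 0.263, beside 0.276 for all rows. It joins imprinted genes with their neighbours, which were not taken apart, and single genes can lie far from it.

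On-off behaviour was found in 1 of the 40 tested, Smoc1, a secreted calcium-binding protein of the extracellular matrix. Smoc1 had 5.05 and 5.24 RPKM in the controls, 3.54, 8.32, 11.0 and 0.198 RPKM in FOXP2 clones 1 to 4 and 12.5, 1.30, 9.69 and 1.13 RPKM in FOXP2-CPED1 clones 1 to 4. It was lowest in FOXP2 clone 4, and the 4 libraries with the most Dlk1 and the least Grb10 were also the 4 with the most Smoc1. Of 6 further rows that join a listed gene with others, 1 was on-off, the row of Snrpn and Snurf with Gm38393. Snrpn and Snurf are paternally expressed from the region homologous to that of Prader-Willi syndrome and encode a splicing protein and a small upstream reading frame. That row had 11.5 and 8.53 RPKM in the controls, 5.78, 14.1, 16.9 and 0.451 RPKM in FOXP2 clones 1 to 4 and 18.8, 13.8, 16.9 and 14.2 RPKM in FOXP2-CPED1 clones 1 to 4. FOXP2 clone 1, at 5.78 RPKM, was below both controls in it, and only FOXP2 clone 4 was under 1 RPKM. FOXP2 clone 4 is among the 3 libraries whose mitochondrial rows are at 0. That clone had a full level of Grb10 and the highest Plagl1, so the clone without Snrpn and Snurf was not the clone without Grb10.

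**Figure D5:**
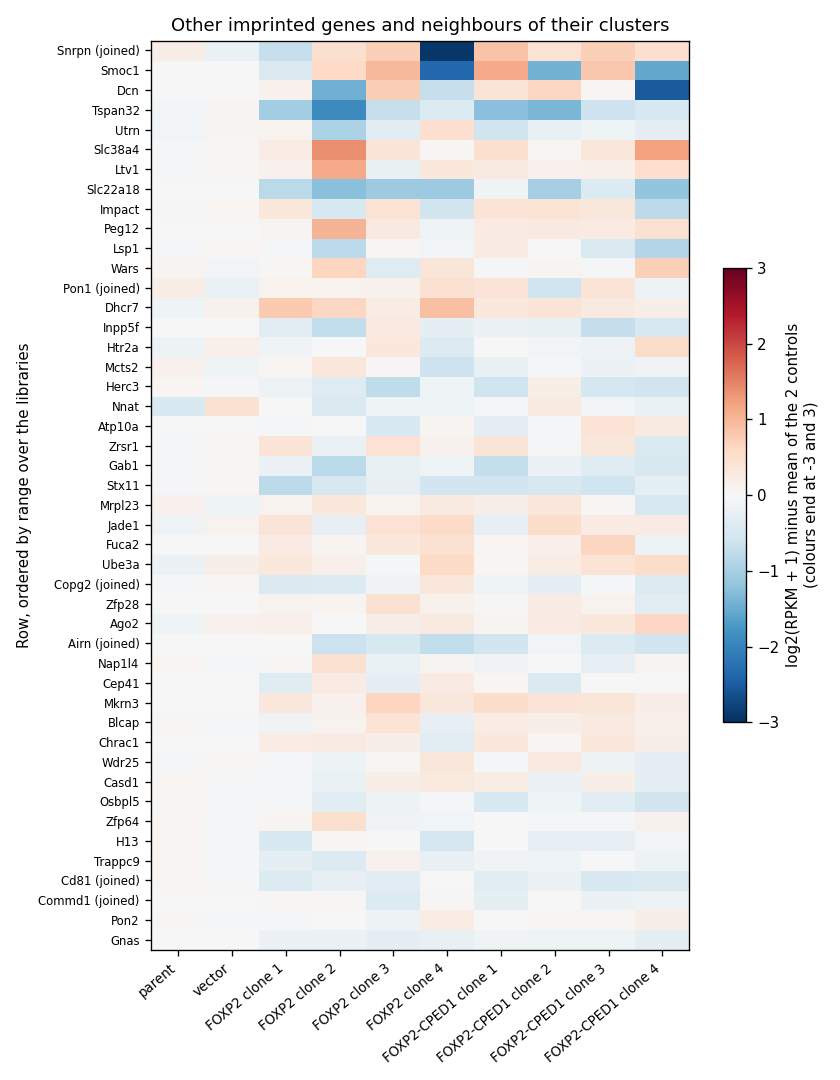
Each tested row of the imprinted list in each library, as log2(RPKM + 1) minus the mean of the 2 controls, with blue for lower and red for higher and rows ordered by their range. The joined Snrpn row and Smoc1 lead the order, and the darkest cells of both belong to FOXP2 clone 4, at 0.451 and 0.198 RPKM.

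Of the 4 listed genes with the smallest p, 3 lie in the cluster of Cdkn1c, and they did not move in 1 direction. In FOXP2 Slc22a18 and Tspan32 were lower and Dhcr7 was higher. Nap1l4 and Osbpl5 of the same cluster had log2 fold changes of 0.10 and -0.14 in FOXP2. Slc22a18, an organic cation transporter of the maternally expressed side of that cluster, had 4.96 and 4.98 RPKM in the controls. It had 2.39, 1.50, 1.82 and 1.82 RPKM in the FOXP2 clones, all below both controls, and 4.59, 1.98, 3.47 and 1.63 RPKM in the FOXP2-CPED1 clones, also all below. Its log2 fold change in FOXP2 was -1.06 (limma, adjusted p = 0.247). Of all rows, 10.4% in FOXP2 and 13.3% in FOXP2-CPED1 were lower than the controls without overlap. Tspan32, a tetraspanin of the same cluster, had 8.10 ± 0.642 RPKM (SD, n = 2) in the controls, 3.80 ± 1.87 RPKM (SD, n = 4) in FOXP2 and 3.95 ± 1.54 RPKM (SD, n = 4) in FOXP2-CPED1. Dhcr7, the last enzyme of cholesterol synthesis, had means of 14.0, 22.6 and 17.3 RPKM (limma, adjusted p = 0.311 in FOXP2). Stx11, a syntaxin beside Plagl1, had 6.10 ± 0.361 RPKM (SD, n = 2), 3.99 ± 0.764 RPKM (SD, n = 4) and 4.08 ± 0.491 RPKM (SD, n = 4) in the 3 groups (limma, adjusted p = 0.380 in FOXP2). None of these 4 passed the threshold.

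The IGF pathway, in which Igf2, Igf2r and Grb10 act, was read from 20 further genes, of which 16 were tested and none passed the adjusted limma threshold. At an unadjusted p under 0.05 by limma there were 3, 3 and 0 of the 16 in FOXP2, FOXP2-CPED1 and between the constructs, against 8.52%, 7.28% and 2.16% of all rows. The median log2 fold changes were 0.08, 0.06 and -0.04, against 0.02, 0.00 and -0.01 over all rows. The smallest p belonged to Pik3r1, a regulatory subunit of PI3-kinase, with 6.36 ± 0.446 RPKM (SD, n = 2) in the controls, 12.9 ± 2.49 RPKM (SD, n = 4) in FOXP2 and 14.3 ± 4.16 RPKM (SD, n = 4) in FOXP2-CPED1. The lowest clone, at 9.86 RPKM, was above the higher control, at 6.67 RPKM, yet the adjusted limma p was 0.253 and 0.210. Of all rows, 9.13% in FOXP2 and 12.2% in FOXP2-CPED1 were higher than the controls without overlap. Igf1, the postnatal growth factor, had 0.751 ± 0.272 RPKM (SD, n = 2), 3.08 ± 1.64 RPKM (SD, n = 4) and 2.68 ± 0.871 RPKM (SD, n = 4) in the 3 groups (limma, adjusted p = 0.428 and 0.567). Pappa, a protease that frees IGF from its binding proteins, ranged from 0.218 to 1.99 RPKM, and Igf2bp3, an RNA-binding protein named for Igf2 mRNA, from 15.2 to 24.1 RPKM. Igf1r, the receptor that both growth factors activate, ranged from 18.1 to 31.1 RPKM.

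Cell cycle inhibitors and G1 cyclins, among which Cdkn1c belongs, gave 13 tested genes of 16 and none past the adjusted limma threshold. At an unadjusted p under 0.05 by limma there was 1 gene of the 13 in each of the 3 comparisons, against 8.52%, 7.28% and 2.16% of all rows. The median log2 fold changes were -0.03, -0.07 and -0.00, against 0.02, 0.00 and -0.01 over all rows. Ccnd3, a D-type cyclin, had 78.2 ± 0.453 RPKM (SD, n = 2) in the controls, 52.7 ± 0.917 RPKM (SD, n = 4) in FOXP2 and 62.4 ± 4.59 RPKM (SD, n = 4) in FOXP2-CPED1 (limma, adjusted p = 0.101 and 0.517). The groups did not overlap with one another, and the spread between FOXP2 clones was small beside the distance to the controls. Of all rows, 10.4% in FOXP2 and 13.3% in FOXP2-CPED1 were lower than the controls without overlap. Between the constructs 1.38% of rows did not overlap. Cdkn1a, the p21 inhibitor, was at 86.0 to 191 RPKM. Cdk6 ranged from 23.9 to 58.5 RPKM and Cdk2 from 13.8 to 19.9 RPKM.

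The writers and keepers of imprints gave 27 tested genes of 31, none past the adjusted limma threshold. At an unadjusted p under 0.05 by limma there were 3, 2 and 1 of the 27 in the 3 comparisons, against the same 8.52%, 7.28% and 2.16% of all rows. In FOXP2 21 of the 27 had a positive log2 fold change, with a median of 0.12, and in FOXP2-CPED1 20 of the 27, also with a median of 0.12. Over all rows 52.3% and 50.3% were positive, with medians of 0.02 and 0.00. The comparisons share their controls. Eed, a Polycomb subunit that holds some imprinted genes silent, had 42.4 ± 1.55 RPKM (SD, n = 2) in the controls, 50.2 ± 3.92 RPKM (SD, n = 4) in FOXP2 and 60.1 ± 3.55 RPKM (SD, n = 4) in FOXP2-CPED1 (limma, adjusted p = 0.675 and 0.218). Smc3, a cohesin subunit, had means of 51.1, 68.6 and 64.2 RPKM (limma, adjusted p = 0.279 and 0.544). Atrx, a chromatin remodeller, ranged from 33.5 to 72.8 RPKM. Zfp57, the zinc finger protein that protects imprints after fertilization, ranged from 12.5 to 17.8 RPKM and was highest in FOXP2 clone 3. Dnmt1, the maintenance methyltransferase, and Uhrf1, its recruiter, were looked at after their values were seen: both were lowest in FOXP2 clone 3, at 28.6 and 13.9 RPKM, against control means of 40.1 ± 0.702 and 30.3 ± 0.215 RPKM (SD, n = 2). Both were highest in FOXP2 clone 2 and FOXP2-CPED1 clone 4, at 65.6 and 67.6 RPKM for Dnmt1 and 69.1 and 62.0 RPKM for Uhrf1. This order was not particular to them. Hells and Ezh2 of this list and the cyclins Ccnd1 and Ccne1 were also lowest in FOXP2 clone 3 and highest in FOXP2 clone 2 and FOXP2-CPED1 clone 4. Ccnd1 had 15.4 RPKM in FOXP2 clone 3, 114 RPKM in FOXP2 clone 2 and 109 RPKM in FOXP2-CPED1 clone 4. Grb10 was below both controls in these 3 clones, as it was in 6 of the 8 clones.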

How the data were processed

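RNA of 10 NIH3T3 cultures was extracted with Trizol and made into NEBNext Ultra RNA libraries, per the labels' protocols. The authors deposited 1 table of RPKM values, 1 column for each library per the file headers. HISAT2, StringTie and the mm9 build are named without versions, per the submitters' processing notes; the sources used here give no annotation, strand setting or filter. Of 18430 rows, 3581 name no gene and were left out (3.37 to 4.54% of a library). Summed RPKM was 794682 to 944602 per library. Since RPKM is a normalized unit, neither a count model nor a counting interval was used, and an exact 0 can be a failed estimate.

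Values were taken as log2(RPKM + 1), with a pseudocount of 1, which understates fold changes of low genes. A row was tested if it reached 1 RPKM in at least 2 of 10 libraries, leaving 12842 rows. One linear model with 3 groups (control, FOXP2, FOXP2-CPED1) was fitted over every library by limma 3.58.1 (R 4.3.3) with a mean trend. p-values are two-sided and Benjamini-Hochberg adjusted over all rows within a comparison, with 0.05 as the threshold. They measure the spread between these cultures. Exact permutation tests over libraries (Python 3.11.15, scipy 1.17.1) stand beside the members; correlations over 10 libraries used permutations. The fit was tested on simulated data.

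All members are named. From each list the text names genes past the threshold and up to 4 with the smallest p. Among imprinted genes it also names those that are on-off and the measured genes of an on-off member's cluster. Other cluster genes and Igf1r, Dnmt1, Uhrf1, Hells, Ezh2, Ccnd1 and Ccne1 were added after their values were seen. The 3 rows most like an on-off member needed a highest value of at least 5 RPKM. Members and lists were chosen with earlier results of these data known. Promoter coordinates are on GRCm38.p6 and were not set against coordinates of the table. Alternatives covered the pseudocount, the filter, the scaling, the trend, the groups fitted, the on-off levels, leaving out each library and a block for the clone number.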

Additional observations from a re-analysis of the deposited data

How the results depend on the processing

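No member and no other imprinted gene passed the threshold under any of the alternatives run, and 302 of 312 recomputed fold changes of members kept their direction. The other 10 changed sign, none of them past the threshold. In FOXP2 against control, Igf2 became 0.16 without control replicate 2 (the vector cells) and 0.092 without the 3 libraries whose mitochondrial rows are at 0, an alternative chosen after seeing the data. In FOXP2-CPED1 against FOXP2, Peg3 became 0.01 without FOXP2 clone 1. Without FOXP2 clone 3, Igf2r became -0.034, Peg3 0.14 and Grb10 -1.24. Grb10 became -0.33 without FOXP2-CPED1 clone 2, and without FOXP2-CPED1 clone 4 Igf2r became -0.03, Dlk1 0.038 and Grb10 -0.07. With each library left out in turn, Igf2 in FOXP2 against control ran from -0.60 to 0.16, and in FOXP2-CPED1 against FOXP2 Igf2r ran from -0.034 to 0.13, Dlk1 from -0.63 to 0.038, Peg3 from -0.49 to 0.14 and Grb10 from -1.24 to 0.82. The number of on-off members ranged from 0 to 1 when each library was left out, and was 0 without FOXP2 clone 3, which held the value under 1 RPKM. Adding joined rows, also chosen after seeing the data, raised the on-off genes of the imprinted list from 1 to 2.

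The number of all rows past the threshold, the background of the members, rested on the 2 controls. It was 56 in FOXP2 and 45 in FOXP2-CPED1 with all libraries, 2 and 0 without the parental cells, and 3 and 2 without the vector cells. It was 9 and 65 when the compared groups were fitted alone, and 37 and 28 with a pseudocount of 0.1. With the clone number as a replicate block, FOXP2-CPED1 against FOXP2 gave 0 members and 0 rows past the threshold. Clones of the same number deviated together with correlations of -0.04, -0.24, 0.28 and 0.17 for numbers 1 to 4, so the numbers were not taken to pair the samples. The controls carry no clone number, and no block was possible for them. The absolute depth is unknown, which limits what can be said of Igf2, Igf2r and Cdkn1c.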
